A study of Homo sapiens with 30 samples.

Results

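MALAT1, NEAT1 and TALAM1 are 3 long non-coding RNA genes of human chromosome 11, taken by symbol as 3 of the 27630 rows of the count tables. MALAT1 RNA gathers in nuclear speckles, bodies rich in splicing factors, and NEAT1 RNA is the scaffold on which paraspeckles are built, with proteins such as SFPQ and NONO bound along it. NEAT1 is made as a short polyadenylated form and as a long form that runs on past the short form's end, and the long form is the one paraspeckles need. MALAT1 carries no ordinary poly(A) tail: RNase P cuts its 3′ end, which is then held in a triple helix, and the piece cut off becomes mascRNA, a small tRNA-like RNA found in the cytoplasm. TALAM1 is transcribed from the opposite strand of the MALAT1 gene. Libraries made after ribosomal RNA depletion, as here, do not select for poly(A) tails.

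The RNA came from HEK293FT, an established line derived from human embryonic kidney, in asynchronous culture. There were 8 libraries in 4 groups of 2: the nuclear fraction, the cytosolic fraction, and 2 kinds of lamina preparation. In a lamina preparation, the peroxidase APEX2 fused to lamin B1 labels molecules near the nuclear lamina, the protein layer under the nuclear envelope, and labelled material is recovered. One kind was prepared natively and the other after fixation with paraformaldehyde (PFA). Per the labels, cells of all 4 groups, the fractions included, received the APEX2 lamin-b1 construct by lipofection. The labels describe no unlabelled or untransfected RNA sample, so a fold change between a lamina preparation and a fraction has no background preparation beside it. The labels number the replicates but do not say that they came from separate cultures, so the p-values measure the spread between these libraries, which may be technical.

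Library totals ran from 2321291 counts in PFA replicate 2 to 8557777 in native lamina replicate 1. On the log2 CPM scale (CPM, counts scaled to the library's total), replicates correlated at 0.964 (nuclear), 0.974 (cytosolic), 0.969 (native lamina) and 0.924 (PFA lamina), and PFA replicate 1 correlated more closely with the cytosolic replicates, at 0.962 and 0.957, than with PFA replicate 2. LMNB1, the gene carried by the construct, was at 3042 to 5202 CPM in the fraction libraries and at 29635 to 94861 CPM in the lamina libraries. All 7 genes listed as typical of HEK293 cells were in the table and summed to between 378 and 1845 CPM per library. Most of each sum was VIM, at 260 to 1311 CPM, and PAX2 was the lowest of the 7 in every library, at 0 to 7.32 CPM. Of 7 genes of blood, liver and fibroblasts, PTPRC, CD3E, HBB and COL1A2 had no count in any library, and ALB and APOA1 reached at most 4 counts. COL1A1 lay between 8.53 and 40.5 CPM, above PAX2 in every library.

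On the hg19 build, NEAT1 is listed on the plus strand at chr11:65190269-65213009, 22741 bases. Its short form covers the first 3735 bases, and 83.6% of the row lies only in the long form. MALAT1 follows 52.2 kb downstream on the same strand at chr11:65265209-65273983, 8775 bases. TALAM1 lies on the minus strand at chr11:65266783-65274903, 8121 bases. All of these bases are listed as exon, and none of these RNAs codes for a protein. TALAM1 covers 7201 of the MALAT1 bases, or 82.1%, which leaves 1574 bases of MALAT1 at its 5′ end and 920 bases of TALAM1 beyond its 3′ end free of the other. Reads were counted without regard to strand and once for every gene they overlapped, so a read from the shared bases was counted in both rows and its strand of origin cannot be told. A pair of small RNA rows share reads with the members in the same way. MIR612, a microRNA gene at chr11:65211929-65212028, lies 21660 bases into NEAT1 and so only in the long form, and MASCRNA, at chr11:65273588-65273645, lies near the end of MALAT1 and inside TALAM1.

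**Figure D1:**
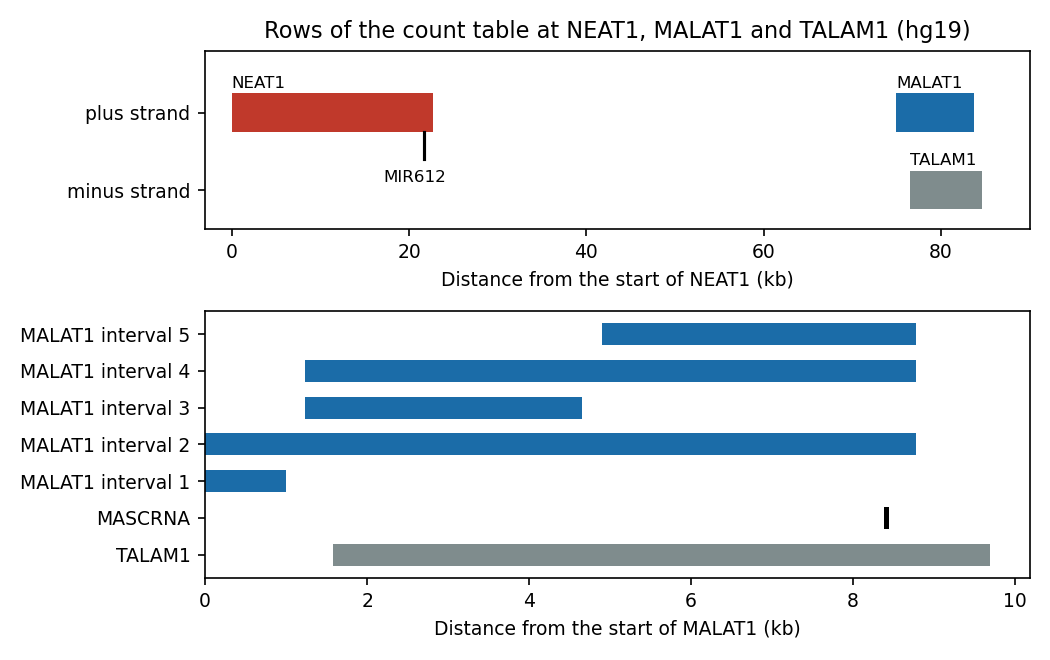
Map of the count table's rows by strand, with distance from the NEAT1 start in kb on the x axis (top), and of the 5 listed MALAT1 exon intervals, MASCRNA and TALAM1, with distance from the MALAT1 start in kb (bottom). MALAT1 starts 52.2 kb past the NEAT1 end, and TALAM1 covers 82.1% of MALAT1.

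The 5′ end of MALAT1 is the stretch that TALAM1 does not reach, and RefSeq lists 2 starts of MALAT1. Of the members, MALAT1 alone had entries in the RefSeq promoter table used here. Both windows are printed because they show how unlike the 2 starts are in base composition. Each runs from 250 bases before a start to 50 bases from it on the plus strand of GRCh38.p14, a different build from that of the count tables. The first is chr11:65497488-65497787 and the second chr11:65498795-65499094. Capitals mark TATAAA, the letters of a TATA box.
MALAT1 start 1: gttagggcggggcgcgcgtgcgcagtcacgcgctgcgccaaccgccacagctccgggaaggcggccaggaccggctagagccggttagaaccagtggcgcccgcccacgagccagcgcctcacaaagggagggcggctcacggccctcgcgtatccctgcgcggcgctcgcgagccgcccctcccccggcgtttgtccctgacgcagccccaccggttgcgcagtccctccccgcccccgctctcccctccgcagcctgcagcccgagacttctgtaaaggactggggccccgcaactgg
MALAT1 start 2: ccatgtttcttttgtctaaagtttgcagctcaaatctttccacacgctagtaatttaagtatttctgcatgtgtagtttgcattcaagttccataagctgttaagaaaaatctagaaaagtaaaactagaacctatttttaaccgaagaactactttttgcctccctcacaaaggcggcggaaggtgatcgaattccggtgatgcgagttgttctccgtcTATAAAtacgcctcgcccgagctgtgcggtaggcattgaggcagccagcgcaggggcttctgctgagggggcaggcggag
The window of start 1 has a GC content of 73.7%, 37 CG pairs and 5 matches to CCGCCC (the letters of a GC box, either strand), with no TATAAA on either strand. The window of start 2 has a GC content of 46% and TATAAA on the plus strand 30 bases before the start, with no CCGCCC. Over 35116 promoter windows of the same length in the table, the median GC content was 58.7%, 11.5% held TATAAA and 45.0% held CCGCCC. A search of both strands for CCAAT found it in neither MALAT1 window and in 34.6% of all windows. Matches of CCGCCC and CCAAT could overlap, since both hold CC, and a match is a description of the sequence only.

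MALAT1 was among the most counted rows of the nuclear fraction. It had 70433 and 96165 counts in nuclear replicates 1 and 2, ranks 6 and 5 of all rows by count, and 5946 and 4608 counts in the cytosolic replicates, ranks 45 and 48. The native lamina replicates held 52489 and 83106 counts, and the PFA lamina replicates 3222 and 8370. As shares of a library's counts, MALAT1 made up 1.08% and 1.43% of the nuclear replicates (95% Wilson intervals 1.07 to 1.09% and 1.42 to 1.44%), 0.0817% and 0.0794% of the cytosolic, 0.613% and 1.39% of the native lamina, and 0.0550% and 0.361% of the PFA lamina. Both native lamina libraries lay far above both cytosolic ones, while PFA replicate 1 lay below both cytosolic libraries and PFA replicate 2 above both. These intervals cover counting error only. They overlap for the cytosolic pair and are far narrower than the gap between replicates in the other groups.

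NEAT1 was lower than MALAT1 in every library. Its counts were 11938 and 29652 in the nuclear replicates, 1169 and 1425 in the cytosolic, 7213 and 7666 in the native lamina, and 576 and 2026 in the PFA lamina. Its share ran from 0.00983% (95% interval 0.00906 to 0.0107%) in PFA replicate 1 to 0.442% (0.437 to 0.447%) in nuclear replicate 2. Per kb of exon, MALAT1 was at 8.38 to 28.1 times the level of NEAT1 across the 8 libraries, a comparison that divides NEAT1 by its full long length although its short form covers only 3735 of those bases. By count, NEAT1 ranked 12 and 8 in the nuclear replicates and 897 and 379 in the cytosolic.

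After TMM scaling, which adjusts library sizes for differences in composition, mean MALAT1 was 13742 ± 3932 CPM in nuclear libraries (SD, n = 2 here and below), 8851 ± 4801 in native lamina, 1837 ± 1756 in PFA lamina and 885 ± 127 in cytosolic libraries. Mean NEAT1 was 3476 ± 2289, 940 ± 269, 426 ± 452 and 229 ± 103 CPM in the same order. The order of the groups was thus the same for both RNAs. Within the PFA pair, replicate 2 exceeded replicate 1 by 5.17 times for MALAT1 and 7.002 times for NEAT1, more than in any other group, where the larger value was 1.23 to 2.24 times the smaller for MALAT1 and 1.51 to 2.74 times for NEAT1. Neighbours in the order that overlapped were the nuclear fraction and native lamina for MALAT1 (lowest nuclear 10962, highest native 12246 CPM) and the PFA lamina and cytosolic fraction for both RNAs. For NEAT1, PFA replicate 2 at 745 CPM fell just short of native replicate 1 at 750 CPM.

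**Figure D2:**
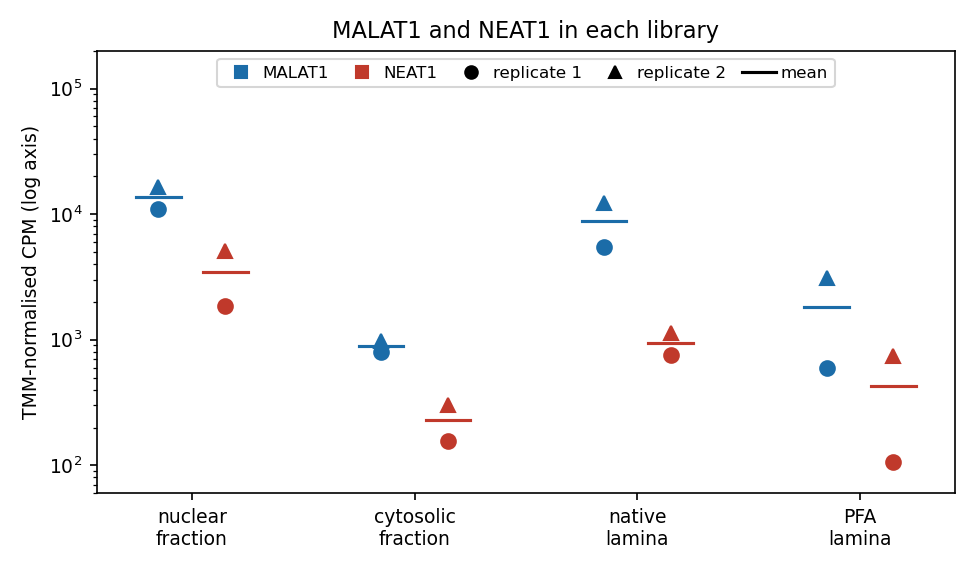
TMM-normalised CPM (log axis) of MALAT1 and NEAT1 in each of the 8 libraries by group; circles are replicate 1, triangles replicate 2 and lines the mean of 2. MALAT1 averages 13742 and 8851 CPM in the nuclear and native lamina libraries and 885 CPM in the cytosolic ones, and the PFA lamina pair is spread the most.

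Comparing the nuclear with the cytosolic fraction asks in which of them the RNAs are the larger part of the RNA counted. Levels are relative to each library's counts, so a fold change does not give how an RNA's molecules divide between nucleus and cytosol. Both RNAs were higher in the nuclear fraction, MALAT1 by 15.5-fold and NEAT1 by 15.2-fold. The log2 fold change was 3.96 (SE 0.71, 95% interval 2.43 to 5.49) for MALAT1, with an adjusted p of 0.00134 by edgeR's quasi-likelihood test with Benjamini-Hochberg adjustment over 16504 genes. For NEAT1 it was 3.93 (SE 0.77, interval 2.27 to 5.59), with an edgeR adjusted p of 0.00195. In this comparison 26.1% of all genes tested were called higher in the nuclear fraction, 21.2% lower and 47.3% in either direction, at an adjusted p under 0.05, so a call by itself is common. In size, the MALAT1 fold change exceeded that of 94.4% of genes and the NEAT1 fold change that of 94.3%. These are bulk libraries, so how either RNA varied from cell to cell cannot be told. Both calls were kept under every alternative tried, with log2 fold changes from 3.61 to 4.22 for MALAT1 and from 3.004 to 4.47 for NEAT1.

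The native lamina preparation was compared with each fraction in turn. Against the cytosolic fraction MALAT1 was about 10-fold higher, at 3.32 on the log2 scale (SE 0.69, interval 1.84 to 4.81), and was called with an edgeR adjusted p of 0.0109. Here 6.99% of genes were called higher in the native lamina, 6.77% lower and 13.8% in either direction. NEAT1 had a fitted ratio of 4.11, a log2 fold change of 2.04 (SE 0.71, interval 0.50 to 3.57) that missed the threshold with an edgeR adjusted p of 0.0704, although both native libraries lay above both cytosolic ones. The MALAT1 call was lost without cytosolic replicate 1 (edgeR adjusted p = 0.105), cytosolic replicate 2 (0.0959) or native lamina replicate 2 (0.0551). The NEAT1 difference became a call in a fit of only the 4 libraries compared (edgeR adjusted p = 0.00221), without either PFA library (0.00264 and 0.00233) and with no scaling beyond total counts (0.0405).

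Against the nuclear fraction, neither RNA passed the test in the native lamina. MALAT1 had a log2 fold change of -0.63 (SE 0.63, interval -2.00 to 0.73, edgeR adjusted p = 0.538), and the groups overlapped. It was -0.15 without native replicate 1 and -1.32 without native replicate 2. NEAT1 had a log2 fold change of -1.89 (SE 0.71, interval -3.41 to -0.36, edgeR adjusted p = 0.103), and both native libraries lay below both nuclear ones. In this comparison 3.44% of genes were called lower in the native lamina, 3.87% higher and 7.31% in either direction. The NEAT1 difference became a call in a fit of only the 4 libraries compared (edgeR adjusted p = 0.00359) and without PFA replicate 1 (0.00568) or 2 (0.00551), and it shrank to -0.97 without nuclear replicate 2.

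In the PFA lamina preparation both RNAs were lower than in the nuclear fraction. MALAT1 had a log2 fold change of -2.90 (SE 0.68, interval -4.36 to -1.45, edgeR adjusted p = 0.0166), or 7.48-fold lower. NEAT1 had a log2 fold change of -3.03 (SE 0.74, interval -4.63 to -1.44, edgeR adjusted p = 0.0193), or 8.18-fold lower. In this comparison 7.81% of genes were called lower in the PFA lamina, 9.63% higher and 17.4% in either direction, while 2.61% and 2.33% of genes had fold changes below those of MALAT1 and NEAT1. Both PFA libraries lay below both nuclear ones for each RNA. The calls were lost without nuclear replicate 1 (edgeR adjusted p = 0.0957 for MALAT1 and 0.0912 for NEAT1), without nuclear replicate 2 (0.0672 and 0.107) and in a fit of only the 4 libraries compared (0.0692 and 0.0713). Without PFA replicate 2 the log2 fold changes were -4.51 and -5.02.

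The PFA lamina could not be separated from the cytosolic fraction for either RNA. MALAT1 had a log2 fold change of 1.05 (SE 0.64, interval -0.32 to 2.43; edgeR gave an adjusted p of 0.3501) and NEAT1 one of 0.89 (SE 0.69, interval -0.60 to 2.39, edgeR adjusted p = 0.471). These intervals hold both no difference and a difference of several fold. In this comparison 0.527% of genes were called higher in the PFA lamina, 0.145% lower and 0.673% in either direction. The 2 PFA libraries stood on opposite sides of the cytosolic ones. Without PFA replicate 2 the log2 fold changes were -0.57 for MALAT1 and -1.10 for NEAT1, not called, and without PFA replicate 1 they were 1.75 and 1.66, both called (edgeR adjusted p = 0.0189 and 0.0279). PFA replicate 1 is the lamina library whose values over all genes lay closest to the cytosolic ones, and the part this plays in the result was not tested.

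Between the lamina preparations, both PFA libraries lay below both native ones for MALAT1, and neither RNA's difference passed the test. For NEAT1 the same order held after TMM scaling only, since its share of counts was 0.0873% in PFA replicate 2 and 0.0843% in native replicate 1. The MALAT1 log2 fold change from native to PFA lamina was -2.27 (SE 0.66, interval -3.69 to -0.85), with an unadjusted p of 0.00422 and an edgeR adjusted p of 0.313. Only 0.473% of genes had a lower fold change. NEAT1 had a log2 fold change of -1.15 (SE 0.70, interval -2.64 to 0.35, edgeR adjusted p = 0.562). edgeR called 0 of 16504 genes here (0.0%), where 1821 genes had an unadjusted p under 0.05 and DESeq2 called 230. Both RNAs became calls without PFA replicate 2, at -3.89 for MALAT1 (edgeR adjusted p = 0.00327) and -3.14 for NEAT1 (0.00956). All of these comparisons share libraries with one another, so their values are not independent of each other.

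**Figure D3:**
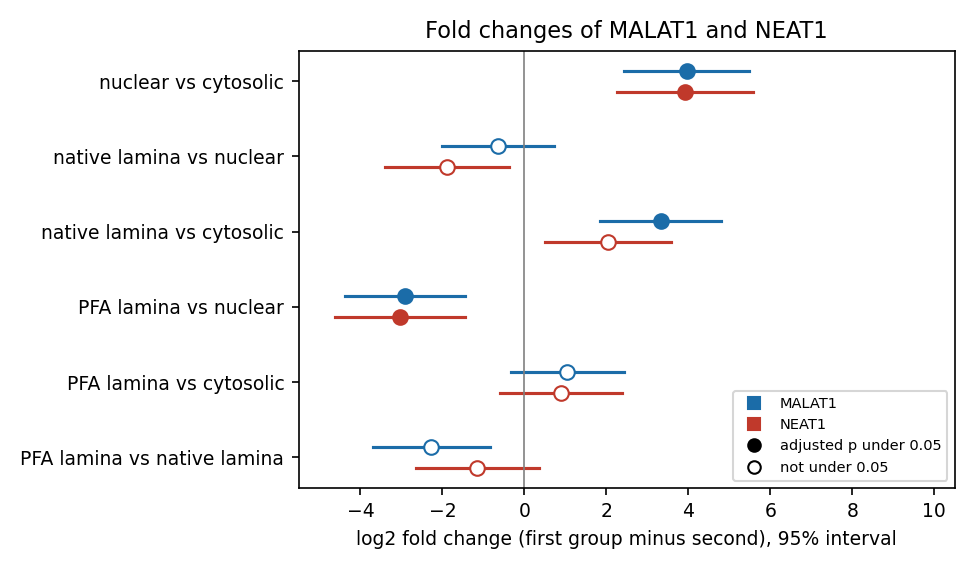
Log2 fold changes of MALAT1 and NEAT1 in the 6 comparisons (x axis, first group minus second) with 95% intervals computed from edgeR's F statistics. Filled points have an adjusted p under 0.05. Both RNAs are called in nuclear against cytosolic and in PFA lamina against nuclear, and MALAT1 alone in native lamina against cytosolic.

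The ratio of NEAT1 to MALAT1 counts within a library does not depend on library size or scaling. It was 0.169 and 0.308 in the nuclear replicates, 0.197 and 0.309 in the cytosolic, 0.179 and 0.242 in the PFA lamina, and 0.137 and 0.0922 in the native lamina (95% intervals 0.134 to 0.141 and 0.0901 to 0.0944 for the native pair). The native lamina libraries were the lowest of the 8, and the other 3 groups overlapped one another. The mean log2 ratio differed by -1.02 from the nuclear fraction to the native lamina, by -1.13 from the cytosolic fraction to the native lamina and by 0.89 from the native to the PFA lamina, differences without overlap that an exact permutation test of 2 against 2 libraries gives a two-sided p of 0.333, the smallest it allows. Nuclear and cytosolic log2 ratios differed by -0.11 (exact two-sided p = 0.667), less than the spread within either group. The PFA lamina differed by -0.14 from the nuclear (exact two-sided p = 1) and by -0.25 from the cytosolic fraction (exact two-sided p = 0.667). All 6 pairs of groups were compared, and none could reach the threshold in this exact test.

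**Figure D4:**
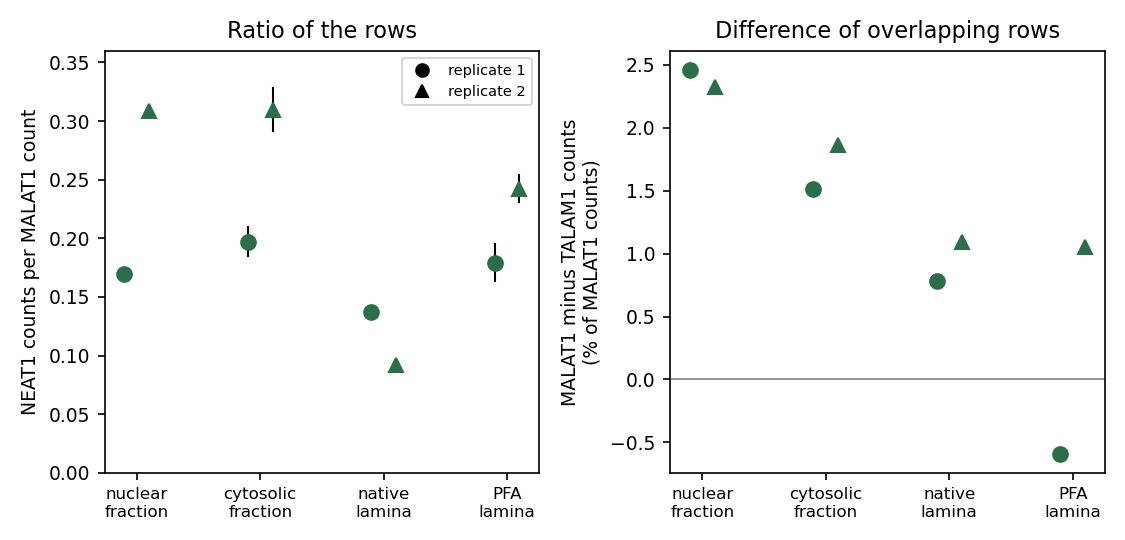
Within-library measures for the 8 libraries by group: the ratio of NEAT1 to MALAT1 counts and the surplus of MALAT1 over TALAM1 counts in % of MALAT1. The 2 native lamina libraries have the lowest NEAT1 to MALAT1 ratios, 0.137 and 0.0922, and the 2 nuclear libraries the largest surplus, 2.46% and 2.32%.

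TALAM1 gave almost the same counts as MALAT1, as their shared bases dictate, at 0.975 to 1.01 times the MALAT1 count in the 8 libraries. Its fold changes are therefore those of MALAT1 (3.95 for nuclear against cytosolic on the log2 scale, 3.33 for native lamina against cytosolic and -2.88 for PFA lamina against nuclear, all called) and are no measure of antisense RNA. What the rows do not share is the surplus of MALAT1 over TALAM1, that is, reads in the 5′ stretch of MALAT1 less those beyond its 3′ end. The surplus was 1733 and 2234 counts in the nuclear replicates, 2.46% and 2.32% of MALAT1. It was 1.51% and 1.87% in the cytosolic replicates, 0.779% and 1.09% in the native lamina, and -0.590% and 1.05% in the PFA lamina, where replicate 1 had a surplus of -19 counts. Of the bases of the whole MALAT1 row 17.9% lie outside TALAM1, and the surplus was at most 2.46% of counts in every library. Listed MALAT1 intervals that start at chr11:65266440 hold only a small part of that 5′ stretch. The part this plays in the surplus was not tested. The nuclear libraries lay above all others (exact permutation test, two-sided p = 0.333 against each other group, the smallest possible).

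The small RNAs within the members were thinly covered. MIR612 had 61 and 213 counts in the nuclear replicates, 1 and 8 in the cytosolic, 65 and 52 in the native lamina, and 9 and 20 in the PFA lamina. Those reads also count for NEAT1 and fall in the part that only its long form holds. MIR612 was called higher in nuclear than cytosolic libraries (log2 fold change 4.82, SE 0.93, edgeR adjusted p = 0.00178) and in native lamina than cytosolic ones (3.15, SE 0.94, edgeR adjusted p = 0.0410), and lower in PFA lamina than nuclear ones (-2.47, SE 0.80, edgeR adjusted p = 0.0483). The first of these was called in all 16 alternatives that could be run for it, at 3.495 without nuclear replicate 2 and 7.21 without cytosolic replicate 2. The native lamina call was kept in 12 of 16, failing without cytosolic replicate 1 (2.07) or 2 (5.55) and without either native lamina replicate. The PFA lamina call was kept in 10 of 16. It failed with total counts, in a fit of only the 4 libraries compared, and without nuclear replicate 1, nuclear replicate 2 (-1.16), native lamina replicate 1 or PFA replicate 1 (-1.63), and it was -3.76 without PFA replicate 2. As a percentage of NEAT1 counts, MIR612 was 0.511 and 0.718 in the nuclear replicates, 0.901 and 0.678 in the native lamina, 1.56 and 0.987 in the PFA lamina, and 0.0855 and 0.561 in the cytosolic, the last pair from 1 and 8 counts. MASCRNA had 6 and 7 counts in the nuclear replicates, 1 and 4 in the native lamina and 0 in the cytosolic and PFA lamina libraries, where 0 counts allow up to 3. The row did not pass the filter on low counts, so its differences were not tested.

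Of 36 paraspeckle protein genes tested, the nuclear against cytosolic test called 4 higher and 10 lower, with 22 not called, where 26.1% of all genes were called higher and 21.2% lower. The 14 called are thus a smaller share than the 47.3% of all genes. Their median log2 fold change was -0.26, beside 0.13 over all genes tested. NONO, a core paraspeckle protein, had its mRNA lower in the nuclear fraction, at -1.43 (SE 0.33, edgeR adjusted p = 0.00440). The mRNA of SMARCA4, a chromatin remodelling ATPase found in paraspeckles, was also lower, at -1.27 (SE 0.31, adjusted p = 0.00537). SFPQ, the partner of NONO, had 0.52 (edgeR adjusted p = 0.141) and HNRNPH1, a splicing regulator, 0.12 (0.771). With upper-quartile factors the list's median was 0.0017 and that of all genes 0.40. In the native lamina against the nuclear fraction 4 paraspeckle genes were called higher and 0 lower (3.87% and 3.44% of all genes), and in the PFA lamina 4 higher and 2 lower (9.63% and 7.81% of all genes).

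Of 39 nuclear speckle protein genes tested, the nuclear against cytosolic test called 15 higher and 8 lower, with 16 not called, beside 26.1% and 21.2% of all genes, and the median was 0.27. SRSF1, a splicing factor that MALAT1 binds, was higher at 1.18 (SE 0.33, edgeR adjusted p = 0.0116), while PRPF8, the core protein of the spliceosome's active site, was lower at -1.45 (SE 0.33, adjusted p = 0.00382). SON and SRRM2, the large proteins that hold speckles together, had -0.21 (edgeR adjusted p = 0.578) and 0.25 (0.625). The native lamina had 3 speckle genes called higher and 0 lower against nuclear libraries (3.87% and 3.44% of all genes), and 8 higher and 3 lower against cytosolic ones (6.99% and 6.77%). The 11 called against cytosolic libraries became fewer without any 1 of the cytosolic or native libraries and more without either PFA library. Calls over all genes, 2271 in this comparison, likewise fell without cytosolic replicate 2 and rose without PFA replicate 1. The PFA lamina had 2 called higher and 5 lower against nuclear libraries (9.63% and 7.81% of all genes). The proteins of a body are made in the cytoplasm, so these are levels of their mRNAs and not of the bodies.

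Among 15 other long non-coding RNAs described as mainly nuclear and tested, 9 were called higher in the nuclear fraction, like MALAT1 and NEAT1, and 0 lower, beside 26.1% and 21.2% of all genes, with a median log2 fold change of 2.02. KCNQ1OT1, which silences neighbouring imprinted genes, was at 1068 ± 178 CPM in the nuclear and 19.8 ± 1.57 CPM in the cytosolic fraction (log2 fold change 5.75, SE 1.01, edgeR adjusted p = 0.00123), beside 3.96 and 3.93 for MALAT1 and NEAT1. It lies antisense within KCNQ1, so its counts may include reads of that gene. MIR17HG, the host transcript of a microRNA cluster, was higher at 3.90 (SE 0.78, edgeR adjusted p = 0.00208). FIRRE, an X-linked RNA that marks its own site of transcription, had 0.60 (edgeR adjusted p = 0.240) and HOTAIRM1, from the HOXA cluster, -0.29 (0.514).

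In the lamina preparations the same list had negative medians against the nuclear fraction. It was -1.08 in the native lamina, where 0 were called higher and 2 lower, and -0.96 in the PFA lamina, where 0 were called higher and 6 lower, beside -0.07 and -0.04 over all genes. Of all genes, 3.44% were called lower in the native lamina and 7.81% in the PFA lamina. The 2 called in the native lamina were FTX and DLEU2, named after their values were seen. They were not called with total counts or without any 1 of the nuclear, cytosolic or native libraries. More of the list was called without either PFA library. Calls over all genes in this comparison also moved in both directions when 1 library was left out. In the PFA lamina the count of 6 fell without PFA replicate 1 or either nuclear replicate. Calls over all genes there were fewest without nuclear replicate 1. KCNQ1OT1 had -2.69 (SE 0.87, edgeR adjusted p = 0.0700) in the native lamina and -2.88 (SE 0.88, adjusted p = 0.0401) in the PFA lamina, where its replicates spread widely (146 ± 192 CPM), and MIR17HG had -1.38 (adjusted p = 0.2002) and -3.72 (SE 0.79, adjusted p = 0.0112). FIRRE had -0.70 and HOTAIRM1 -0.35 in the native lamina, neither called.

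Among 15 long non-coding RNAs tested from a list named for the cytosol, 1 was called higher and 4 lower in the nuclear fraction, beside 26.1% and 21.2% of all genes, with a median of -0.55. The list also holds RPPH1 and RMRP, although RNase P is known as a nuclear enzyme and RNase MRP as a nucleolar one, so its name does not describe them. RPPH1, the RNA of RNase P, the enzyme that cuts the MALAT1 3′ end, was at 981 ± 372 CPM in the nuclear and 14925 ± 2018 CPM in the cytosolic fraction (log2 fold change -3.93, SE 0.57, edgeR adjusted p = 0.00069). RMRP, the related RNA of RNase MRP, had -1.14 (edgeR adjusted p = 0.0700, but called in 8 of 17 alternatives, DESeq2 among them at 0.00952), SNHG16 was lower at -1.84 (SE 0.48, adjusted p = 0.00774), and NORAD, which binds Pumilio proteins, had -0.79 (0.127, called in 4 alternatives). Against the nuclear fraction RPPH1 was higher in the native lamina at 3.02 (SE 0.55, edgeR adjusted p = 0.0129) and in the PFA lamina at 3.604 (SE 0.56, adjusted p = 0.00594). It was the 1 gene of this list called higher in either preparation, and 1 other was called lower in the PFA lamina. Of all genes, 3.87% were called higher and 3.44% lower in the native lamina, and 9.63% and 7.81% in the PFA lamina.

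Of 18 protein-coding neighbours of NEAT1 and MALAT1 on 11q13 that were tested, 4 were called higher and 5 lower in the nuclear fraction, with a median of 0.02. With 26.1% and 21.2% of all genes called, these counts are near the background. The log2 fold changes of the list ran from -1.39 to 4.26, the highest lying above those of MALAT1 and NEAT1. DPF2, a subunit of a chromatin remodelling complex, and RELA, a subunit of the transcription factor NF-kappa B, were lower, at -1.15 (SE 0.28, edgeR adjusted p = 0.00544) and -1.12 (SE 0.30, adjusted p = 0.00942). KAT5, a histone acetyltransferase, had 0.02 (edgeR adjusted p = 0.949) and POLA2, a subunit of DNA polymerase alpha, 0.26 (0.486). In the native lamina against the nuclear fraction edgeR called 0 of the 18, beside 7.31% of all genes. Their log2 fold changes there ran from -3.44 to 0.85. DESeq2, run on every row with a count and so on a different set of genes, also called 0, beside 1711 of all genes. An unadjusted edgeR p under 0.05 was found for 7 of the 18 and for 4754 of all 16504 genes. The number called by edgeR was 6 in a fit of only the 4 libraries compared, where 27.1% of all genes were called. It also rose with total counts, with no filter and without either PFA replicate. Calls over all genes ran from 1064 to 4368 over the alternatives other than leaving out a library. In the PFA lamina 4 were called higher and 0 lower (9.63% and 7.81% of all genes).

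The list counts leaned on single libraries. Calls over all genes also moved widely when 1 library was left out, so these moves are not particular to the lists. Between the fractions, calls over all genes were fewest without nuclear replicate 1. Calls among paraspeckle genes fell from 14, and among speckle genes from 23, without any 1 of the nuclear or cytosolic libraries. Calls among the cytosolic RNAs fell from 5, and among the neighbours from 9, without nuclear replicate 1 or either cytosolic replicate. In the native lamina against the nuclear fraction, calls among paraspeckle and speckle genes fell without either nuclear replicate or native replicate 2. They rose without either PFA replicate. Calls over all genes in that comparison were also fewest without nuclear replicate 1. In the PFA lamina against the nuclear fraction, leaving out nuclear replicate 1 took away nearly all calls, over all genes as well as among paraspeckle, speckle and neighbour genes. Of the genes named with a call between the fractions, NONO and DPF2 lost it without nuclear replicate 1, SRSF1 without nuclear replicate 2 or cytosolic replicate 2, SNHG16 without nuclear replicate 1 or cytosolic replicate 2, and RELA without nuclear replicate 1 or cytosolic replicate 1. In the lamina preparations against the nuclear fraction, RPPH1 lost its native lamina call without either nuclear replicate or native replicate 1 and its PFA lamina call without nuclear replicate 1. KCNQ1OT1 and MIR17HG lost their PFA lamina calls without either nuclear replicate and in a fit of only the 4 libraries compared, and KCNQ1OT1 also without either cytosolic replicate, with total counts and by DESeq2. Without PFA replicates 1 and 2 KCNQ1OT1 was at -1.91 and -6.67, and MIR17HG was at -6.43 without PFA replicate 2. Both were called in the native lamina in a fit of only the 4 libraries compared, with no filter and without either PFA replicate, KCNQ1OT1 also with a replicate block.

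**Figure D5:**
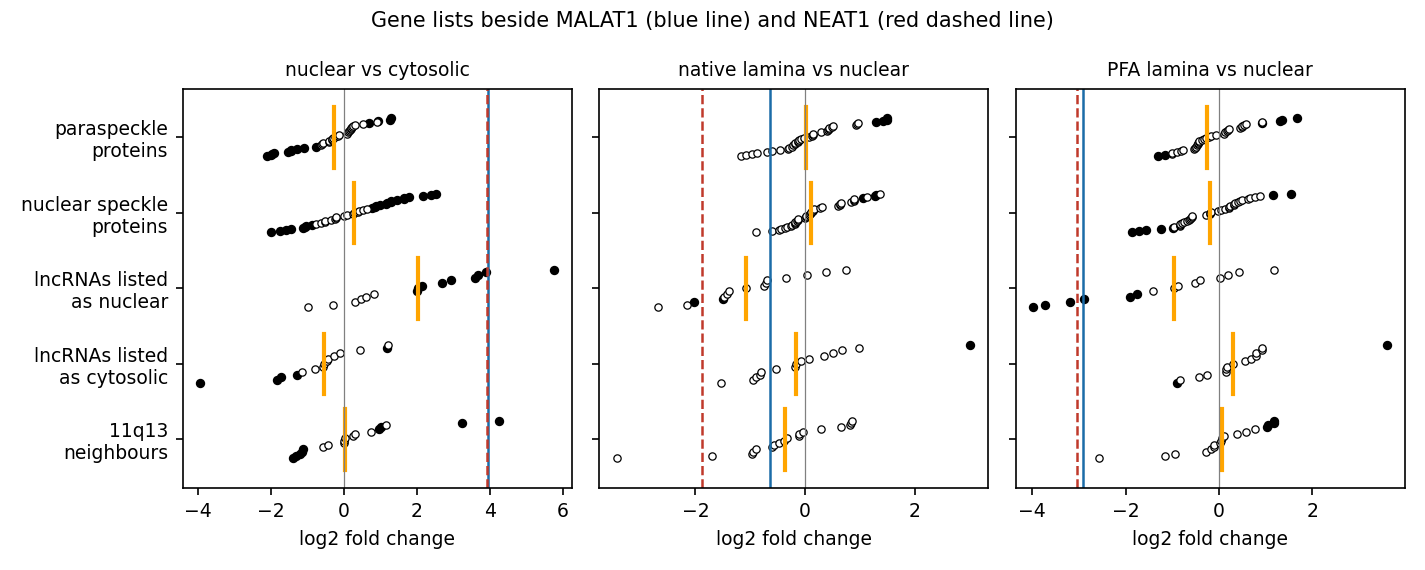
Log2 fold changes of the genes of 5 lists (points) with each list's median, beside MALAT1 and NEAT1, for nuclear against cytosolic, native lamina against nuclear and PFA lamina against nuclear. RNAs described as mainly nuclear have a median of 2.02 between the fractions, while the medians of the paraspeckle and speckle protein lists are -0.26 and 0.27.

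The genes whose pattern over the 8 libraries was most like that of MALAT1, by Pearson correlation of log2 normalised CPM among 7734 genes with at least 50 counts in every library, were WRN (0.996), RRBP1 (0.993), ZFC3H1 (0.988), ZNF445 (0.988) and ASH1L (0.987). For NEAT1 they were SLC5A3 (0.986), OGFOD3 (0.982), ITGA5 (0.968), CSPG5 (0.968) and TBC1D8 (0.968). MALAT1 and NEAT1 correlated at 0.952 with each other. The 8 points share their libraries and fall in 4 groups, so these values describe the order of groups. The likeness was in shape and not in size. WRN, a DNA helicase, had a log2 fold change of 1.02 between nuclear and cytosolic fractions, and SLC5A3, a myo-inositol transporter, 2.17, against 3.96 and 3.93 for the members.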

How the data were processed

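The authors deposited read counts per gene symbol, made with featureCounts 1.5.2 on hg19 RefFlat models with strand ignored and a read counted for every gene it overlapped, per the file headers. Per the submitters' processing notes, TopHat2 2.1.1 and Bowtie2 2.3.2 were among the tools used. The header of cytosolic replicate 1 carries the output name of nuclear replicate 1 but the input of cytosolic replicate 1, and the library was kept as labelled. The authors also deposited domain lists of HCT116 cells, used for positions only.

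Rows with low counts were removed by filterByExpr on the groups, leaving 16504 of 27630 rows. MALAT1, NEAT1, TALAM1 and MIR612 passed, and MASCRNA did not. The test was edgeR 4.0.16's quasi-likelihood F-test (R 4.3.3) after TMM scaling. A single model held all 8 libraries and a term for each group, and gave 6 contrasts. p-values were adjusted by Benjamini-Hochberg over all genes tested, and a call is an adjusted p under 0.05. Likeness used TMM-normalised log2 CPM with a prior count of 2. Correlations between libraries used log2 CPM on total counts over the genes tested, with a small constant added before the log. Ratios within a library were compared by exact permutation tests. Alternatives were other scalings, other filters, a replicate block, DESeq2 1.42.0, a fit restricted to the 4 libraries in a comparison, and leaving out each library. Without molecular identifiers a read is not an independent molecule: Wilson intervals and the floor of 3 counts cover counting error only.

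The members and lists were chosen with earlier results of these data known. Named genes were the members, rows that share their reads, the 4 genes of each list with the highest mean level, and the 5 genes most like MALAT1 and NEAT1. MEG3, BCYRN1, HULC and PCNXL3 of the lists were not tested. Lists are described by counts and medians, with no set test.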

Additional observations from a re-analysis of the deposited data

How the results depend on the processing

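Each result was recomputed under the alternatives. MALAT1 and NEAT1 kept their nuclear against cytosolic calls in all 17. In a fit of only the 4 libraries compared, PFA lamina against nuclear lost its call for MALAT1 at -2.90 and NEAT1 at -3.03, and NEAT1 gained calls in native lamina against nuclear at -1.79 and against cytosolic at 2.05. With no filter on low counts, NEAT1 gained the same calls at -1.85 and 2.04, and MALAT1 gained one in PFA against native lamina at -2.31. With total counts, NEAT1 in native lamina against cytosolic was called at 2.39. Total counts raised the median of all genes by 0.28 and 0.29 in native lamina against nuclear and cytosolic and by 0.17 in PFA lamina against both, and relative to that median MALAT1 and NEAT1 stood at -0.55 and -1.78 in native lamina against nuclear. Replicate numbers name no shared culture, and replicates of the same number correlated in their deviations between -0.07 and 0.32. With a replicate block NEAT1 was called in native lamina against nuclear at -1.68 and against cytosolic at 2.12, and genes called in the 6 comparisons numbered 8333, 1846, 3010, 3556, 404 and 0.

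Leaving out each library in turn, MALAT1 ranged from -1.32 to -0.15 in native lamina against nuclear, from 2.62 to 3.79 in native lamina against cytosolic, from -4.51 to -2.15 in PFA lamina against nuclear, from -0.57 to 1.75 in PFA lamina against cytosolic and from -3.89 to -1.54 in PFA against native lamina. NEAT1 ranged from -2.44 to -0.97 in native lamina against nuclear, from 1.64 to 2.58 in native lamina against cytosolic, from -5.02 to -2.13 in PFA lamina against nuclear, from -1.10 to 1.66 in PFA lamina against cytosolic and from -3.14 to -0.35 in PFA against native lamina. The log2 NEAT1 to MALAT1 ratio ranged from -0.54 to 0.32 in nuclear against cytosolic, from -0.57 to 0.30 in PFA lamina against nuclear and from -0.57 to 0.081 in PFA lamina against cytosolic. Genes called, 7811, 1207, 2271, 2878, 111 and 0 in the 6 comparisons in the order of the report's plot of fold changes, ran over all alternatives from 4073 to 9482, 10 to 4368, 161 to 4302, 13 to 5985, 0 to 2869 and 0 to 742. Small values changed sign: with 1 library left out, TALAM1 ran from -0.54 to 1.76 in PFA lamina against cytosolic, MIR612 from -2.10 to 0.016 in PFA against native lamina, and, in nuclear against cytosolic, HNRNPH1 from -0.19 to 0.38, SRRM2 from -0.12 to 0.71 and HOTAIRM1 from -0.63 to 0.075. In nuclear against cytosolic also, SON was at 0.060 with upper-quartile factors, which raised the median of all genes by 0.27 there, and KAT5 at -0.055 without 4 abundant rows, at -0.021 with no filter and from -0.18 to 0.21 with 1 library left out. In PFA lamina against nuclear, FIRRE ran from -1.004 to 0.00022, NORAD from -0.22 to 0.49 and SNHG16 from -0.24 to 1.26 with 1 library left out. The cause was not tested. Depth limits MASCRNA and MIR612, which had 0 to 7 and 1 to 213 counts.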

Other observations

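Lamina-associated domains were mapped in another cell line, HCT116, a colorectal carcinoma line, with 1 consensus list for each of G1, S and G2, so no spread between replicates can be given. MALAT1 and NEAT1 lay in no domain in any stage. The nearest domain on chromosome 11 was 8.47 Mb from MALAT1 and 8.39 Mb from NEAT1 in G1, at chr11:54600001-56800000, and 8.27 and 8.19 Mb away in S, at chr11:54600001-57000000. In G2 the nearest was a domain of 0.4 Mb at chr11:70300001-70700000, on the other side of the genes, 5.03 Mb from MALAT1 and 5.09 Mb from NEAT1. The lists held 14, 16 and 17 domains on chromosome 11 in G1, S and G2. No RNA was measured in HCT116 cells here, and the RNA libraries came from unsynchronised HEK293FT cells, so the positions and the RNA levels belong to different cells.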
